A study of Mus musculus with 16 samples.

Results

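The question was which genes of CD8+ T cells responded to prostaglandin E2 (PGE2) differently once the cells were also stimulated through CD3 and CD28. For each gene, the PGE2 effect with beads minus the PGE2 effect without beads was taken on the log2 scale, and this difference is called the interaction. An interaction of 0 means that PGE2 multiplied the transcript level by the same factor in both states. All 16 libraries entered it. It was tested with edgeR's quasi-likelihood test in 15096 of the 54532 genes of the count table, of which 28205 had at least 1 count. A gene was called at a Benjamini-Hochberg adjusted p below 0.05 and an interaction of at least 1, that is, a PGE2 effect at least 2-fold apart between the states. By this rule 35 genes were called (0.232% of the genes tested), 23 with an interaction above 0 (0.152%) and 12 below 0 (0.0795%).

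The cells were TCF1+CD8+ T cells. They had been differentiated over 4 days from naive CD8+ T cells, taken from the spleens of C57BL/6J mice. During that time all of them had been activated repeatedly with anti-CD3/CD28 microbeads in IL-2, so no group was without earlier bead contact. The experiment had 4 groups of 4 libraries each. The cells were held for 1 h without or with 100 ng ml−1 PGE2 and then kept for 4 h in IL-2 at 85 U ml−1, either alone (unstimulated) or with fresh beads at 1 bead per cell (stimulated). The unstimulated cells therefore also received IL-2, and PGE2 came before the beads. The study gives an age range, of young adult mice, for its experiments as a whole and none for these cultures. The sex of the donor mice and what libraries with the same replicate number share are not given in the sources used here, so p-values measure the spread between these libraries, which may in part be technical.

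PGE2 acts on T cells mainly through the receptors EP2 and EP4, which raise cAMP and thereby activate protein kinase A and transcription factors of the CREB family. Microbeads coated with anti-CD3 and anti-CD28 stand in for antigen and costimulation and switch on NFAT, AP-1 and NF-kB, followed by MYC and the cell growth that MYC drives, with the making of ribosomes, polyamines and nucleotides. Stimulated T cells also raise receptors that limit them, such as PD-1, and feedback inhibitors of NF-kB and of G-protein signalling.

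The libraries held 22678254 to 42950763 counts, and replicates of a group differed by more than counting noise (chi-square per degree of freedom 7.81 to 51.3). The 8 CD8+ T cell markers summed to 3136 to 5165 CPM (counts scaled to the size of the library). B cell markers summed to at most 7.44 CPM, myeloid markers to at most 13.1 CPM and erythroid markers to at most 1.30 CPM. A list of 3 CD4+ T cell markers summed to 14.5 to 40.1 CPM, most of it *Zbtb7b*, with *Cd4* itself at a mean of at most 0.629 CPM in any group. Of 4 NK cell markers, *Ncr1* and *Klra8* had no count, and the sum of the list, 12.3 to 24.1 CPM in unstimulated untreated, 5.55 to 10.9 in unstimulated PGE2-treated, 112 to 178 in stimulated untreated and 36.5 to 128 in stimulated PGE2-treated libraries, was nearly all *Eomes*, which activated CD8+ T cells also express. In such bulk libraries a lower transcript level per cell and fewer cells that express the gene cannot be told apart.

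In most of the 35 genes the PGE2 effect was smaller on the log2 scale with beads than without. In 28 of them PGE2 changed expression at least 2-fold without beads but not with beads. Of these, 22 were lowered by PGE2 in unstimulated cells (a call that 2.20% of all genes tested had) and 6 were raised (1.40%). In 2 genes, *Ifngr1* and *Epcam*, PGE2 had an effect of that size with beads and not without. In the remaining 5 neither effect passed both thresholds, although their difference did. As background, PGE2 changed 544 genes (3.60% of those tested) without and 333 (2.21%) with beads by the same rule in the same fit, with beads 233 upwards (1.54%) and 100 downwards (0.662%). At the adjusted p alone these shares were 23.5% and 14.3%. Beads without PGE2 raised all 28 (adjusted p below 0.05, 31.5% of all genes tested), whether PGE2 lowered or raised them. The PGE2 effect and the bead effect in these sentences share the unstimulated untreated libraries, and the interaction is built from both, so the directions describe the called genes and are no further evidence for them.

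**Figure D1:**
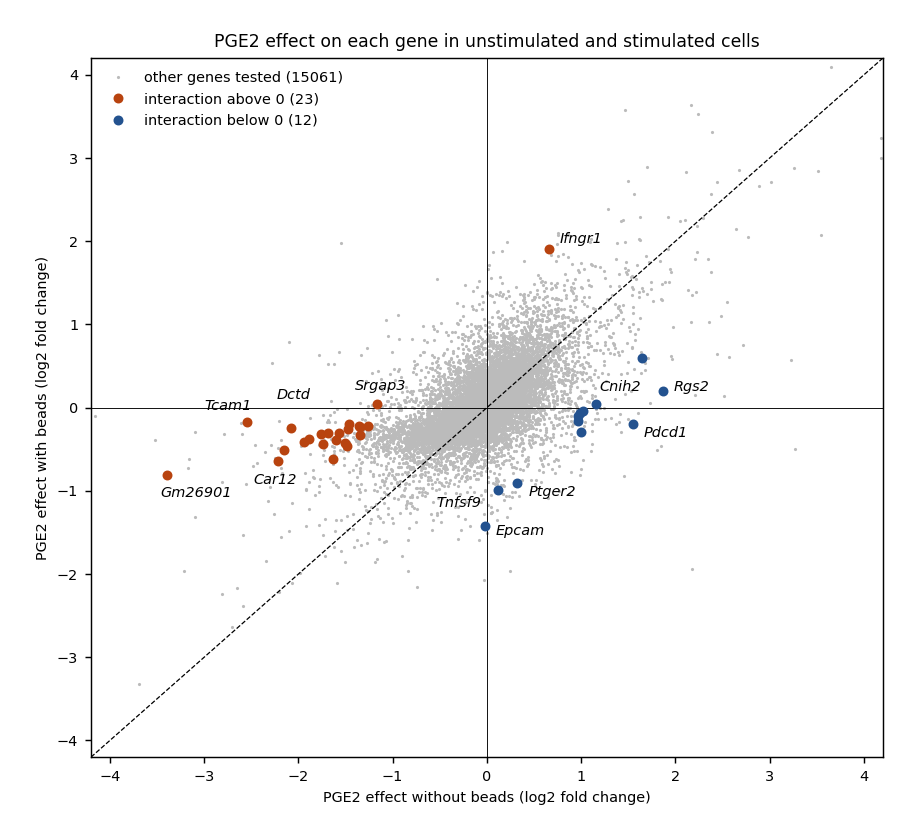
PGE2 effect on each gene, as log2 fold change of PGE2-treated against untreated cells, without beads (horizontal axis) and with beads (vertical axis). Grey points are the other genes tested, orange points the 23 genes with an interaction above 0 and blue points the 12 below 0, and on the dashed line both effects are equal. Of the orange points, 22 lie at −3.39 to −1.17 on the horizontal and −0.81 to 0.042 on the vertical axis, and *Ifngr1* stands alone at 0.66 and 1.91. 7 genes lie outside the range drawn.

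Without the size threshold, 113 genes passed (0.749% of those tested), 78 above (0.517%) and 35 below 0 (0.232%), and 1415 (9.37%) had an unadjusted p below 0.05. Over all genes tested the median interaction was 0.051, and 61.4% were above 0. The genes nearest the size threshold were *Aen* (1.01) and *Gpatch4* (1.02) inside it, and *Fut4* and *Rsad1* (both 0.997) outside. The number of called genes moved with single libraries. It fell to 23 and 18 without unstimulated untreated replicates 1 and 2, to 20 without unstimulated PGE2-treated replicate 3, to 22 without stimulated untreated replicate 1 or 3, and to 20 without stimulated PGE2-treated replicate 2, and it rose to 72 without stimulated PGE2-treated replicate 4. Of the 35 genes, 16 were called in all 16 such fits, and these were *Dctd*, *Car12*, *Srm*, *Ifrd2*, *Polr1b*, *Pprc1*, *Gnl3*, *Atad3a*, *Ifngr1*, *Srgap3*, *Cnih2*, *Tnfaip3*, *Ptger2*, *Gch1*, *Epcam* and *Rgs2*. With RLE size factors in place of TMM the 23 to 12 split became 15 to 12. A test against a 1.5-fold difference (glmTreat) called 0 genes, with 235 at an unadjusted p below 0.05, and DESeq2's Wald test called 52.

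**Figure D2:**
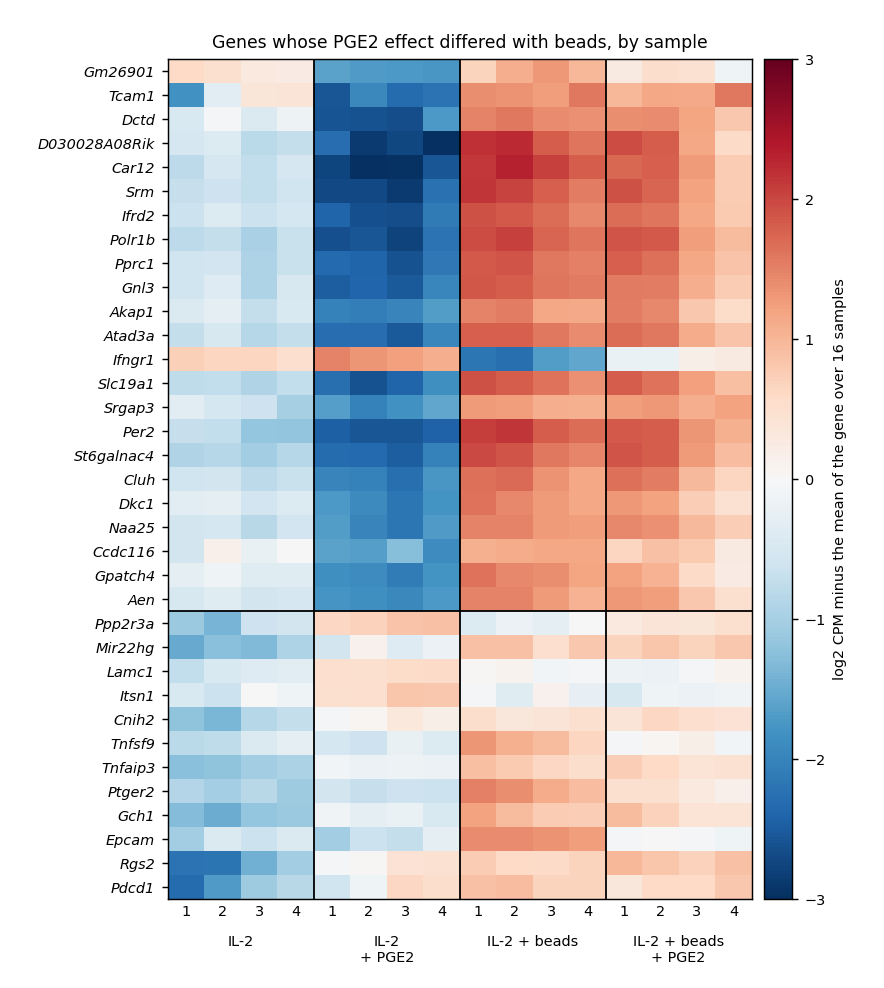
Expression of the 35 genes (rows, ordered from the highest to the lowest interaction) in the 16 libraries (columns, replicates 1 to 4 of each group), as log2 CPM minus the mean of the gene. Above the black line, 22 of 23 genes have their lowest mean in unstimulated PGE2-treated cells, and all of these but *Gm26901* are higher in both stimulated groups than in either unstimulated one, while *Ifngr1* is highest in unstimulated PGE2-treated cells. Below it, 11 of the 12 genes have their lowest group mean in unstimulated untreated cells, and in *Epcam* both unstimulated groups are low.

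The 22 genes that PGE2 lowered without beads included several that serve ribosome production and cell growth. Their PGE2 effect without beads ranged from −3.39 to −1.17 (median −1.61), and with beads from −0.81 to 0.042 (median −0.33). Untreated and PGE2-treated libraries did not overlap in any of the 22 genes without beads (28.1% of all genes tested had no overlap), but this contrast had chosen them. With beads there was no overlap in 3 (17.0% of all genes tested), *Gm26901*, *Car12* and *Ccdc116*. Beads raised them by a median of 2.21 without and 3.60 with PGE2. The PGE2 effect with beads was below 0 in 21 of the 22, and passed an adjusted p of 0.05 in 3, *Car12* (−0.64), *Gpatch4* (−0.61) and *Ccdc116* (−0.46).

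*Srm* (ENSMUSG00000006442, chr4:148591503-148594993, plus strand), the gene of spermidine synthase, which makes the polyamine spermidine, showed the pattern at high expression. In unstimulated cells it had 65.8, 68.5, 62.9 and 69.7 CPM in untreated replicates 1 to 4 and 16.2, 16.2, 14.5 and 22.4 CPM in PGE2-treated ones. With beads the values were 465, 434, 365 and 307 CPM without and 399, 354, 243 and 180.4 CPM with PGE2. The groups lay far apart in the unstimulated state and overlapped in the stimulated state, where PGE2-treated replicates 3 and 4 were the lowest. At each replicate number, however, the stimulated PGE2-treated library was below the untreated one. The PGE2 effect was −1.94 without and −0.42 with beads, and the interaction 1.53 (SE 0.279, edgeR adjusted p = 0.0149).

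*Polr1b* (ENSMUSG00000027395, chr2:129100995-129126594, plus strand) encodes a large subunit of RNA polymerase I, which transcribes ribosomal RNA. Its untreated unstimulated libraries had 41.1, 43.8, 36.4 and 45.1 CPM and the PGE2-treated ones 11.5, 11.9, 10.4 and 15.2 CPM. Stimulated libraries had 277, 298, 241 and 218 CPM without and 262, 257, 171 and 139 CPM with PGE2. As in *Srm*, only the unstimulated groups were separate, and at each replicate number the stimulated PGE2-treated library was below the untreated one. The interaction was 1.44 (SE 0.245, edgeR adjusted p = 0.00955), from PGE2 effects of −1.76 and −0.32. A further group of called genes belong to nucleolar work. They were *Gnl3*, which encodes the nucleolar GTPase nucleostemin (1.30), *Dkc1*, which encodes the pseudouridine synthase dyskerin (1.08), and *Gpatch4* (1.02). Of these, *Gnl3* was called in all 16 fits that left out a library, *Dkc1* in 7 and *Gpatch4* in 3.

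*Pprc1* (ENSMUSG00000055491, chr19:46044886-46072915, plus strand) encodes a coactivator of the PGC-1 family that takes part in mitochondrial biogenesis. It had 61.4, 62.4, 49.6 and 58.6 CPM in unstimulated untreated and 18.6, 17.6, 15.2 and 21.0 CPM in unstimulated PGE2-treated libraries. The stimulated libraries had 337, 346, 279 and 269 CPM and, after PGE2, 322, 294, 210.5 and 169.9 CPM. The effect of PGE2 was −1.68 without beads, where no library of one group reached the other, and −0.31 with beads, where they overlapped (interaction 1.38, SE 0.230, edgeR adjusted p = 0.00831). Other genes of mitochondrial proteins with the same course were *Atad3a*, an ATPase of the inner membrane (1.26), *Akap1*, which anchors protein kinase A at the outer membrane (1.27), and *Cluh*, whose product binds messenger RNAs of mitochondrial proteins (1.12). *Atad3a* was called in all 16 fits that left out a library, *Akap1* in 7 and *Cluh* in 3.

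*Ifrd2* (ENSMUSG00000010048, chr9:107587642-107593385, plus strand) encodes a protein that binds ribosomes and represses translation. It had 41.8, 48.5, 41.3 and 44.7 CPM in unstimulated cells and 12.2, 10.4, 10.1 and 14.9 CPM after PGE2. In stimulated cells it had 245, 232, 207 and 176 CPM and, after PGE2, 209, 197, 144 and 112 CPM. The unstimulated groups were separate and the stimulated groups overlapped (PGE2 effects −1.89 and −0.38, interaction 1.51, SE 0.236, edgeR adjusted p = 0.00573).

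Genes of nucleotide, folate and acid-base metabolism were also among the 22. *Dctd* (ENSMUSG00000031562, chr8:48099092-48153233, plus strand) encodes dCMP deaminase, which feeds thymidine nucleotide synthesis. Unstimulated libraries had 9.44, 12.4, 9.52 and 11.7 CPM without PGE2 and 2.11, 2.06, 2.01 and 3.89 CPM with it, replicate 4 standing above the other 3. Stimulated libraries had 36.3, 39.0, 35.0 and 33.7 CPM without and 34.4, 34.6, 29.7 and 22.9 CPM with PGE2. The PGE2 effect was −2.08 without beads, with separate groups, and −0.24 with beads, with overlapping groups (interaction 1.84, SE 0.250, edgeR adjusted p = 0.00336), and it was called in all 16 fits that left out a library, that replicate included. *Slc19a1*, the reduced folate carrier, had an interaction of 1.22 and was called in 4 of these 16 fits.

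*Car12* (ENSMUSG00000032373, chr9:66713686-66766845, plus strand) encodes carbonic anhydrase XII of the cell surface. Its values were 11.1, 13.6, 11.5 and 13.6 CPM in untreated and 2.81, 2.34, 2.42 and 3.18 CPM in PGE2-treated unstimulated cells. With beads they were 84.2, 95.7, 80.2 and 67.9 CPM without and 64.2, 66.8, 46.8 and 32.9 CPM with PGE2. Here PGE2-treated libraries lay below all untreated ones in both states, and the PGE2 effect was smaller with beads (−0.64, adjusted p = 0.0172) than without (−2.21). The interaction was 1.57 (SE 0.262, edgeR adjusted p = 0.00831).

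The remaining genes with per-library values are less certain. *Tcam1* (ENSMUSG00000020712, chr11:106276672-106288745, plus strand), named for a testicular cell adhesion molecule, had 0.221, 0.733, 1.24 and 1.26 CPM in unstimulated untreated and 0.105, 0.197, 0.138 and 0.153 CPM in unstimulated PGE2-treated libraries, where this came to 3 to 7 counts. In stimulated libraries it had 2.59, 2.50, 2.34 and 2.96 CPM without and 1.95, 2.18, 2.14 and 2.95 CPM with PGE2. The untreated unstimulated libraries were spread widely, with replicate 1 the lowest. Its interaction was 2.36 (SE 0.506, edgeR adjusted p = 0.0370), and it was called in 3 of the 16 fits that left out a library, with the largest adjusted p, 0.104, without unstimulated PGE2-treated replicate 3.

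*D030028A08Rik* (ENSMUSG00000078700, chr11:96916270-96965060, plus strand) had 7.67, 8.22, 6.22 and 6.63 CPM without and 2.21, 1.44, 1.60 and 1.30 CPM with PGE2 in unstimulated cells. Stimulated cells had 50.2, 51.9, 39.1 and 33.7 CPM without and 43.1, 38.6, 24.7 and 16.3 CPM with PGE2. Only the unstimulated groups were separate (interaction 1.64, SE 0.363, edgeR adjusted p = 0.0440). It was called in 3 of the 16 fits without a library, with an adjusted p of 0.120 without unstimulated untreated replicate 2. It shares exon bases with *Cdk5rap3* (3.62%) and *Sp2* (2.01%) on the opposite strand, among others. Since use of strand in the counting is not stated, reads of overlapping genes cannot be told apart, and its counts are uncertain.

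The other genes of the 22 were *Gm26901* (2.58), a long noncoding RNA with 1 count in each unstimulated PGE2-treated library, so that its fitted value depends on the prior count, *Srgap3*, a GTPase-activating protein (1.21), the circadian repressor *Per2* (1.20), the sialyltransferase *St6galnac4* (1.14), *Naa25*, a subunit of an N-terminal acetyltransferase (1.03), *Ccdc116* (1.02) and the p53-regulated nuclease gene *Aen* (1.01). *Srgap3* was the gene of the 22 with a PGE2 effect above 0 with beads (0.042, adjusted p = 0.849). *Naa25* shares 26.6% of its exon bases with *Erp29* and *Ccdc116* shares 6.64% with *Ydjc*, both on the opposite strand, and *Ydjc* itself had an interaction of 0.95 past the adjusted p.

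**Figure D3:**
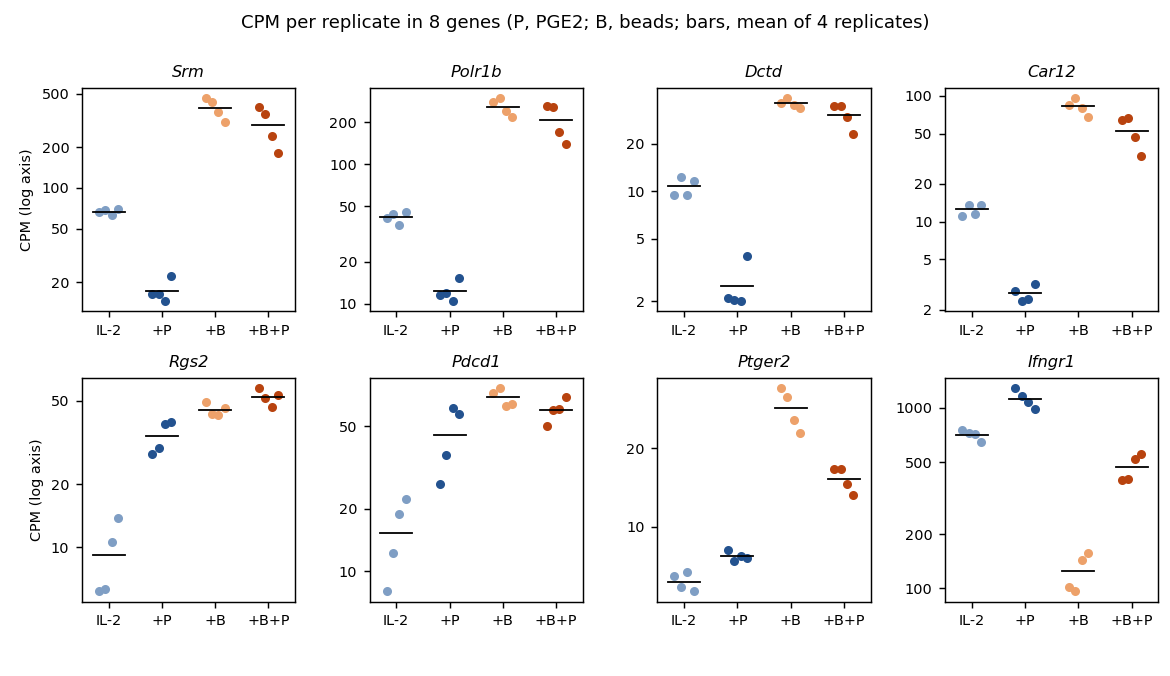
Level of 8 genes in each library, in CPM on a log axis, with replicates 1 to 4 from left to right and the group mean as a bar. In the upper row PGE2-treated unstimulated cells (+P) lie far below untreated ones, and the stimulated groups (+B, +B+P) lie above both. In the lower row PGE2 raises *Rgs2* and *Pdcd1* in unstimulated cells, lowers *Ptger2* in stimulated cells, and raises *Ifngr1* in both states.

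In stimulated cells the replicates of these genes were not alike. Overlap of the stimulated groups therefore did not mean that same-numbered libraries were equal. In *Srm*, *Polr1b*, *Pprc1*, *Ifrd2*, *Dctd*, *D030028A08Rik* and *Tcam1* the stimulated PGE2-treated library was below the untreated one at each replicate number. In *Tcam1* replicate 4 the values were close. Over the 22 genes, the stimulated PGE2-treated replicates 3 and 4 were both below replicates 1 and 2 in 19, and the stimulated untreated ones likewise in 19. The median ratio of the highest to the lowest replicate was 1.82 in stimulated PGE2-treated libraries, against 1.37 in stimulated untreated, 1.42 in unstimulated PGE2-treated and 1.25 in unstimulated untreated libraries. The part of this spread in the smaller PGE2 effect was not tested beyond leaving out each library. Without stimulated PGE2-treated replicate 4, the lowest of its group in 20 of the 22 genes, all 35 genes were called.

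The differences described so far are differences of proportion, and on the linear scale the picture was different. In 16 of the 22 genes the drop in CPM after PGE2 was larger with beads than without, and in all 22 the level without PGE2 was higher with beads. For *Srm*, mean CPM changed by −49.4 without and by −98.8 with beads. For *Polr1b* the change was −29.3 and −51.4 CPM. In *Dctd*, by contrast, it was −8.22 without and −5.58 with beads, and in *Akap1* −15.4 and −10.7. No test was made on this scale.

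**Figure D4:**
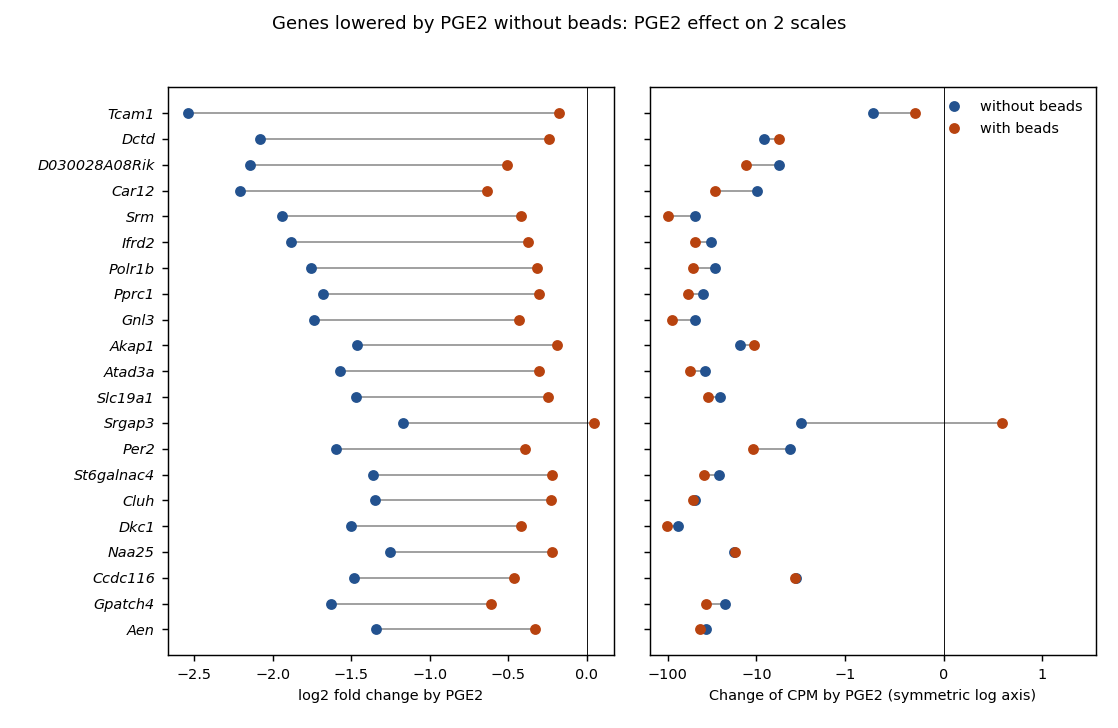
PGE2 effect without (blue) and with beads (orange) in the 21 genes lowered by PGE2 without beads that had a mean of at least 1 CPM, as log2 fold change (left) and as change of mean CPM (right, symmetric log axis). On the left every orange point lies to the right of the blue one, from −0.64 to 0.042. On the right it lies further below 0 in 16 of the 21 genes, for example −98.8 against −49.4 CPM in *Srm*.

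A smaller set of genes was raised by PGE2 in unstimulated cells, and the rise was smaller or not detected when beads were present. It held 6 genes with a 2-fold PGE2 effect without beads and none with beads (*Pdcd1*, *Rgs2*, *Gch1*, *Cnih2*, *Mir22hg* and *Ppp2r3a*) and 3 whose rise was just under 2-fold (*Tnfaip3*, *Lamc1* and *Itsn1*). Beads without PGE2 raised 8 of the 9 (adjusted p below 0.05), the exception being *Itsn1* (effect 0.17, adjusted p = 0.401). The interaction ranged from −1.75 to −1.05. On the linear scale the sign was the same in all 12 genes with an interaction below 0.

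*Pdcd1* (ENSMUSG00000026285, chr1:94038305-94052553, minus strand) encodes PD-1, an inhibitory receptor. Unstimulated cells had 7.98, 12.3, 18.8 and 22.2 CPM without and 26.2, 36.4, 61.0 and 57.3 CPM with PGE2. Stimulated cells had 72.5, 76.0, 62.7 and 63.6 CPM without and 50.2, 59.9, 60.4 and 69.4 CPM with PGE2. All PGE2-treated libraries were above all untreated ones without beads, and with beads the groups overlapped. The PGE2 effect was 1.55 against −0.20, and the interaction −1.75 (SE 0.365, edgeR adjusted p = 0.0316). It was the lowest interaction of the called genes but was called in 7 of the 16 fits without a library, with an adjusted p of 0.0866 without unstimulated untreated replicate 2.

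*Rgs2* (ENSMUSG00000026360, chr1:143999338-144004161, minus strand) encodes a regulator of G-protein signalling that dampens Gq-coupled receptors and adenylyl cyclase, and it is a known target of cAMP. It had 6.13, 6.29, 10.5 and 13.8 CPM in unstimulated untreated and 27.9, 29.7, 38.6 and 39.5 CPM in unstimulated PGE2-treated cells. With beads it had 49.2, 43.3, 42.7 and 46.1 CPM and, with PGE2, 57.4, 51.5, 46.8 and 53.2 CPM. The unstimulated groups were separate and the stimulated ones overlapped, with the PGE2-treated library above the untreated one at each replicate number. The PGE2 effect was 1.87 without and 0.20 with beads (interaction −1.67, SE 0.267, edgeR adjusted p = 0.00624).

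*Gch1* (ENSMUSG00000037580, chr14:47153895-47189413, minus strand) encodes GTP cyclohydrolase, the first enzyme of tetrahydrobiopterin synthesis, a pathway that supports T cell proliferation. Values in unstimulated cells were 14.4, 12.8, 15.9 and 16.5 CPM and, after PGE2, 33.5, 29.1, 31.0 and 26.1 CPM. In stimulated cells they were 82.1, 69.2, 61.1 and 59.5 CPM without and 69.3, 58.3, 47.8 and 47.6 CPM with PGE2. PGE2 thus shifted all unstimulated libraries upwards, by 1.00, with an effect of −0.29 and overlapping groups in stimulated cells (interaction −1.29, SE 0.184, edgeR adjusted p = 0.00382). The stimulated PGE2-treated library was below the untreated one at each replicate number. *Cnih2* (ENSMUSG00000024873, chr19:5092871-5098418, minus strand), a cornichon-family gene known from the transport of glutamate receptors, was low, at 2.65, 2.33, 3.35 and 3.70 CPM without and 5.97, 6.39, 7.69 and 6.90 CPM with PGE2 in unstimulated cells. Its stimulated libraries had 8.95, 7.86, 8.00 and 8.57 CPM without and 8.03, 9.42, 8.71 and 8.33 CPM with PGE2, with no separation (interaction −1.11, SE 0.188, edgeR adjusted p = 0.00941).

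*Tnfaip3* (ENSMUSG00000019850, chr10:19000910-19015657, minus strand) encodes A20, a ubiquitin-editing enzyme that terminates NF-kB signalling. It and *Lamc1* had the smallest adjusted p of the 35 genes. It had 149, 155, 173 and 186 CPM in unstimulated untreated and 339, 317, 323 and 316 CPM in unstimulated PGE2-treated cells. The stimulated groups had 667, 619, 555 and 514 CPM without and 599, 544, 474 and 494 CPM with PGE2 and overlapped. Here too the PGE2-treated library was below the untreated one at each replicate number. The rise of 0.96 without beads (adjusted p = 2.23e-06) was just under 2-fold, and the effect with beads was −0.16 (interaction −1.12, SE 0.131, edgeR adjusted p = 0.000873). The laminin chain gene *Lamc1* had PGE2 effects of 0.99 and −0.066, and the endocytic scaffold gene *Itsn1* of 0.97 and −0.10. *Ppp2r3a*, a regulatory subunit of protein phosphatase 2A, kept a smaller rise with beads (0.60, adjusted p = 0.0107, against 1.65). *Mir22hg*, the host transcript of miR-22, went from 1.02 to −0.037 and shares exon bases with *Tlcd2* on the same strand.

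Because CREB binds the cAMP response element TGACGTCA and, more weakly, its half-site TGACG, the RefSeq promoters of the called genes were read for both on either strand, in windows of 250 bases before to 50 bases after each start on GRCm38.p6. The half-site is contained in the full element. The half-site, the E-box and the kappa B letters were chosen after the data had been seen. A promoter was found for 28 of the 35 genes. The full element was in none of them, and in 3.62% of the genes tested that had a promoter. The half-site was in 5 of 10 genes with an interaction below 0 (*Gch1*, *Mir22hg*, *Ppp2r3a*, *Rgs2* and *Tnfaip3*), in 3 of 17 of those lowered by PGE2 without beads only, in 13 of 25 genes of the ribosome list described further on, and in 35.6% of the genes tested. The E-box CACGTG, which MYC binds, was in 3 of the 17, in 2 of the 10, in 7 of the 25 and in 11.7% of the genes tested. The AP-1 site TGANTCA was in 1 of the 17 and 1 of the 10, against 5.98%, the NFAT core GGAAAA in 4 and 1, against 23.8%, and the NR4A core AAGGTCA in 1 and 0, against 3.91%. The kappa B motif and the EGR site GCGTGGGCG were in 0 of either (1.6% and 1.45% of the genes tested). These shares describe letters in a window and not binding. In *Tnfaip3* the half-site lay at −168 from the start, and its stretch is not shown because it overlaps an annotated untranslated region. The stretches below hold the half-site upstream of 4 of the genes that PGE2 raised without beads, with the half-site in capitals, read 5′ to 3′ along the strand of the gene.
Gch1 (chr14:47189477-47189521, gene on the minus strand): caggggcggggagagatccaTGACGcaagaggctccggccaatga
Mir22hg (chr11:75461343-75461387, gene on the plus strand): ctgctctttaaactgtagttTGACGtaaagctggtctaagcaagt
Ppp2r3a (chr9:101252051-101252082, gene on the minus strand): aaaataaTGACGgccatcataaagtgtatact
Rgs2 (chr1:144004310-144004354, gene on the minus strand): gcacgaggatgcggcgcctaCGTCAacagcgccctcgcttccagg
Rgs2 (chr1:144004192-144004236, gene on the minus strand): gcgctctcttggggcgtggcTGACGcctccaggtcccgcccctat
*Rgs2* held it at 2 places, one on each strand, at positions −185 and −67 from the start. In *Gch1* it lay at −88, in *Mir22hg* at −176 and in *Ppp2r3a* at −243.

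Of the 35 genes, 2 had a PGE2 effect of at least 2-fold with beads and not without. *Ifngr1* (ENSMUSG00000020009, chr10:19591949-19610229, plus strand) encodes the ligand-binding chain of the interferon-gamma receptor, which T cells lower when they are stimulated. It had 754, 724, 712 and 649 CPM in unstimulated untreated and 1279, 1155, 1069 and 983 CPM in unstimulated PGE2-treated cells. Beads lowered it to 102, 96.2, 143 and 157 CPM, and with PGE2 the stimulated libraries had 399, 402, 518 and 552 CPM. PGE2-treated libraries were above all untreated ones in both states. The PGE2 effect was 0.66 (adjusted p = 0.00283) without and 1.91 (adjusted p = 6.74e-07) with beads, so the gene rose in both and more than 2-fold only with beads. The interaction was 1.25 (SE 0.204, edgeR adjusted p = 0.00682). In mean CPM the rise was 412 without and 343 with beads, so on the linear scale the order turned.

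*Epcam* (ENSMUSG00000045394, chr17:87635979-87651106, plus strand), a gene of a cell adhesion molecule best known from epithelia, had 3.44, 5.23, 4.53 and 5.30 CPM without and 3.41, 4.56, 4.35 and 5.88 CPM with PGE2 in unstimulated cells. Stimulated cells had 19.3, 19.2, 18.3 and 17.0 CPM without and 6.89, 7.24, 6.89 and 6.49 CPM with PGE2. The unstimulated groups overlapped throughout, and the stimulated PGE2-treated libraries were all well below the lowest untreated one. The PGE2 effect was −0.024 without and −1.42 with beads (interaction −1.40, SE 0.208, edgeR adjusted p = 0.00382). Beads raised *Epcam* by 1.99 without and by 0.59 with PGE2.

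*Ptger2* (ENSMUSG00000037759, chr14:44988195-45003820, plus strand) encodes EP2, a receptor of PGE2 itself. In unstimulated cells it had 6.44, 5.86, 6.67 and 5.63 CPM without and 8.15, 7.38, 7.71 and 7.56 CPM with PGE2. Beads brought it to 34.0, 31.7, 25.8 and 22.9 CPM, and with PGE2 the stimulated libraries had 16.6, 16.7, 14.6 and 13.3 CPM. All PGE2-treated libraries were above the untreated ones without beads and below them with beads. The effects were 0.32 (adjusted p = 0.0662) and −0.91 (adjusted p = 5.88e-05), and their difference was −1.23 (SE 0.169, edgeR adjusted p = 0.00336). *Ptger4*, the gene of EP4, fell in both states, with effects of −0.59 and −0.91, with an interaction of −0.33 (95% interval −0.69 to 0.034, adjusted p = 0.614).

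*Tnfsf9* (ENSMUSG00000035678, chr17:57105325-57107757, plus strand) encodes 4-1BBL, the ligand of the costimulatory receptor 4-1BB. Unstimulated cells had 4.19, 4.33, 5.38 and 5.99 CPM without and 5.10, 4.79, 6.25 and 5.50 CPM with PGE2, with overlap. Stimulated cells had 18.6, 15.4, 14.1 and 11.5 CPM without and 7.12, 7.62, 8.29 and 6.92 CPM with PGE2, without overlap. The PGE2 effect of −0.99 with beads (adjusted p = 0.000225) was just short of 2-fold and that without beads was 0.12 (interaction −1.11, SE 0.211, edgeR adjusted p = 0.0185). It was called in 12 of the 16 fits without a library, and it was lost without unstimulated untreated replicate 2 (adjusted p = 0.0573), unstimulated PGE2-treated replicate 3, stimulated untreated replicate 2 or stimulated PGE2-treated replicate 2. An antisense gene, *Gm11110*, covers 14.9% of its exon bases and had 8.24 CPM, so its counts are uncertain.

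With the adjusted p alone, 14 of the 113 genes responded to PGE2 with beads and not without, 68 without and not with, 29 in both in the same direction and 2 in opposite directions. Those 2 were *Igf2r*, the receptor that sorts lysosomal enzymes (0.31 without and −0.30 with beads, interaction −0.60), and *Zfp703* (0.31 and −0.45, interaction −0.75). Of the 14, *Klf2*, a transcription factor of quiescence and migration, had a PGE2 effect with beads of 0.89 and of 0.067 without (interaction 0.83, SE 0.178, edgeR adjusted p = 0.0391). *Arap2*, a GTPase-activating protein, behaved alike (0.21 and 1.02, interaction 0.81, SE 0.121, edgeR adjusted p = 0.00382). *Batf*, an AP-1 factor of effector differentiation, was lower after PGE2 with beads (−0.85) and had an effect of −0.17 without, an interaction of −0.67. *Batf* and *Zfp703* were chosen after their values had been seen.

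Among the genes under the size threshold, 5 of the 10 with the smallest adjusted p were genes that PGE2 lowered less in the presence of beads. *Atic*, an enzyme of purine synthesis, had PGE2 effects of −1.20 and −0.30 (interaction 0.89, SE 0.130, edgeR adjusted p = 0.00382). *Sfxn1*, a mitochondrial serine carrier (0.79), the histone acetyltransferase *Kat2a* (0.75), the phosphatase *Ptpn6*, which encodes SHP-1 and restrains T cell receptor signalling (0.66), and the phosphatase *Ptp4a3* (0.54) followed. *Ptp4a3* and *Ptpn6* were lower after PGE2 with beads (−0.51 and −0.25, adjusted p = 1.66e-05 and 0.0239). In the other direction, the splicing factor gene *Isy1* rose by 1.22 without and 0.42 with beads (interaction −0.80, SE 0.127, edgeR adjusted p = 0.00621), the kinase gene *Csnk1e* had effects of 0.44 and −0.21, and *Tns1*, which encodes the adhesion protein tensin, of −0.34 and −1.19.

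Gene lists, written from general knowledge but with earlier results of these data known, placed these single genes among their neighbours. The background is that 0.749% of all genes tested passed the interaction test and 61.4% had an interaction above 0. In the list of ribosome biogenesis and MYC, 4 of 30 genes passed, all above 0, which were *Polr1b*, *Gnl3*, *Nop58* (0.98, adjusted p = 0.0479), a core protein of small nucleolar ribonucleoproteins, and *Polr1a* (0.97, adjusted p = 0.0385), the largest subunit of RNA polymerase I. The median interaction of the list was 0.72 and 28 members were above 0. PGE2 lowered 28 of the 30 without beads (adjusted p below 0.05, 14.8% of all genes tested), with a median of −1.10, and 1 with beads (6.14%), with a median of −0.35. Beads raised the list by a median of 1.83 without and 2.58 with PGE2. The members below 0 were *Mycn* (−1.30, adjusted p = 0.0562), the MYC family member, and *Odc1* (−0.34), the rate-limiting enzyme of polyamine synthesis, and they and *Myc* are named after their values had been seen. *Myc* itself had PGE2 effects of −0.99 and −0.26 and an interaction of 0.73 (95% interval 0.15 to 1.32, adjusted p = 0.364). *Nop58* passed in 2 and *Polr1a* in 5 of the 16 fits that left out a library, with adjusted p up to 0.125 and 0.10. With RLE size factors 2 members passed instead of 4. With upper-quartile factors and with the replicate block more than 4 passed, as given further on.

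Targets of cAMP and CREB leaned the other way. Of 25, 21 had an interaction below 0, with a median of −0.41, and *Rgs2* and the clock gene *Per1* (−0.45, adjusted p = 0.0125) passed. PGE2 raised 12 of them without and 6 with beads (8.74% and 8.17% of all genes tested). *Per1* had PGE2 effects of 0.49 and 0.035. Immediate early genes of T cell stimulation had a median interaction of −0.26, 31 of 36 below 0 and 1 past the test, *Tnfaip3*. In the list of PGE2 receptors and cAMP signalling, *Ptger2* and *Adcy6*, an adenylyl cyclase that makes cAMP (0.69, adjusted p = 0.0479), passed out of 24, and the median was 0.029. *Adcy6* had effects of −0.38 and 0.31.

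Stem-like and quiescence genes had a median interaction of 0.39, with 16 of 25 above 0 (64%, near the 61.4% of all genes tested). PGE2 raised 7 of them without and 14 with beads (adjusted p below 0.05, 8.74% and 8.17% of all genes tested). *Klf2* passed the test above 0 and *Btg2*, an antiproliferative gene, below it (−0.58, adjusted p = 0.0415). Costimulatory and inhibitory receptors had a median of 0.060 over 23 genes, with *Pdcd1* below and *Btla*, an inhibitory receptor (0.74, adjusted p = 0.0155), above 0 past the test. The PGE2 effects on *Btla* were −1.07 and −0.33, and its interaction had an adjusted p of 0.0545 without unstimulated untreated replicate 2. Cytokines and chemokines had a median of −0.22, with *Tnfsf9* the 1 of 32 past the test, and NF-kB regulators of −0.14, with *Tnfaip3* the 1 of 19. In the gamma chain receptor and STAT5, cytotoxic effector, homing, and mTORC1 and glycolysis lists, 0 members passed edgeR's test (adjusted p below 0.05). The same held for the cholesterol synthesis, interferon response and cell cycle lists. The medians of these lists lay between −0.17 (interferon response) and 0.078 (cytotoxic effector). These results are of the fit with TMM factors and no replicate block. In other fits some of these lists had members past the test, as given further on.

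**Figure D5:**
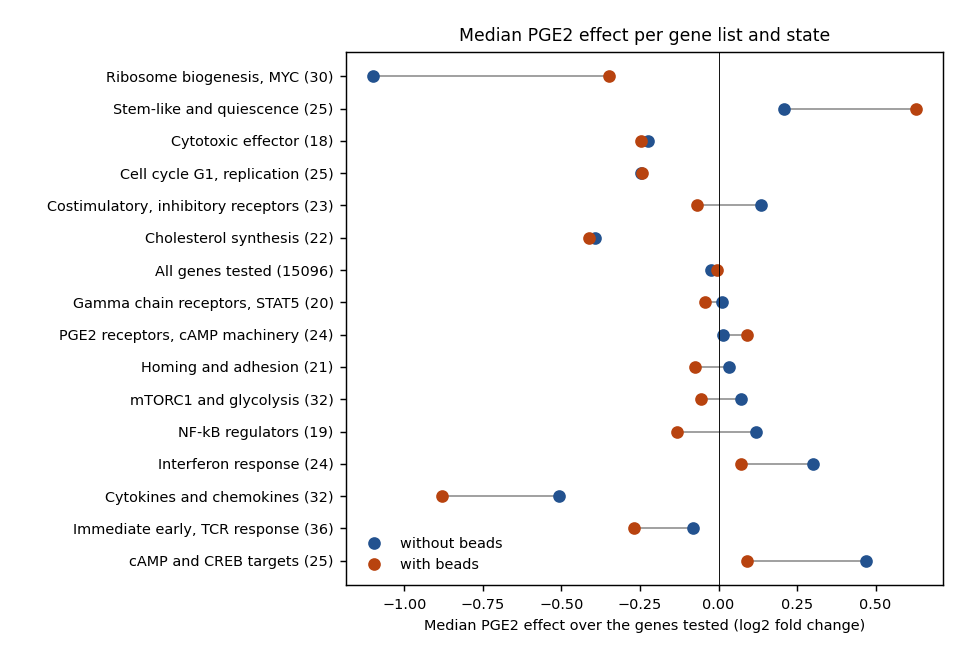
Median PGE2 effect (log2 fold change) over the tested genes of each list, number in brackets, without (blue) and with beads (orange), ordered by the median interaction. The ribosome biogenesis list moves from −1.10 to −0.35 and the cAMP and CREB list from 0.47 to 0.091, while the medians over all 15096 genes are −0.024 and −0.0056.

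For most strong PGE2 responses no interaction was detected. PGE2 changed 145 genes at least 2-fold in the same direction in both states, 99 of them upwards. Their median interaction was 0.025, with a range of −1.47 to 2.35. Choosing genes called in the same direction in both states in part fixes a median near 0. In 48 of the 145 (33.1%), against 70.7% of all genes tested, the 95% interval of the interaction lay within −1 and 1, and in the others it reached at least a 2-fold difference between the states. Among the fixed genes, *Crem*, a cAMP-responsive transcription factor, had PGE2 effects of 1.65 and 1.44 (interaction −0.21, 95% interval −0.64 to 0.23), the phosphatase gene *Phlpp1* of 1.39 and 1.12 (interval −0.59 to 0.041), and the receptor partner *Ramp3* of 4.19 and 3.24 (interval −2.16 to 0.27). *Fosl2*, an AP-1 subunit, had effects of 1.54 and 0.72 (interaction −0.83, interval −1.24 to −0.41, adjusted p = 0.0677), and passed the test without unstimulated untreated replicate 3 (adjusted p = 0.0431) or 4 (0.0298).

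Of the fixed genes of the IL-2 axis and of stimulation, *Il2* and *Ifng* gave the widest intervals. *Il2* had PGE2 effects of −3.22 without and −1.96 with beads, and an interaction of 1.25 (95% interval −1.22 to 3.73, adjusted p = 0.871). Its mean was 1.55 and 0.158 CPM in unstimulated and 101 and 26.0 CPM in stimulated cells. *Ifng* also had a wide interval (effects −2.07 and −1.15, interval −1.02 to 2.86). *Il2rg*, the common gamma chain, had a narrow interval, with effects of −0.20 and −0.10 and an interval of −0.096 to 0.29. Exon bases are shared on the same strand by *Il2rg* with *Gm20489* (30.5%) and by *Ifng* with *Gm49751* (25.95%). The counts of both are therefore uncertain. The interaction was 0.19 for *Egr1* (interval −0.31 to 0.70), −0.36 for *Egr2* (−1.29 to 0.58), −0.26 for *Nr4a1* (−0.93 to 0.41) and 0.39 for *Tcf7*, the gene of TCF1 (−0.063 to 0.83).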

How the data were processed

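RNA of 16 samples was sequenced, 4 in each of 4 groups. Per the labels and the study's methods, the authors aligned reads with HISAT2 2.0.5 to the mouse genome (GRCm38), counted them per gene with featureCounts 1.5.0-p3 and tested them with DESeq2 1.20.0. They deposited raw counts and FPKM values, which are scaled to gene length and depth, in separate tables. Whether strand was used in counting is not given in the sources used here. From the counts, edgeR 4.0.16 (R 4.3.3) was fitted to all 16 libraries with filterByExpr (minimum count 10), TMM factors and quasi-likelihood tests, with Benjamini-Hochberg adjustment over all genes tested. SE is the absolute log2 value over the root of F, and intervals are 95%. CPM use TMM library sizes. The fit was tested on simulated data. Named genes were the 8 highest and 8 lowest called genes averaging 1 CPM or more, list members past the adjusted p, the 10 smaller interactions with the lowest adjusted p, and 13 fixed genes. The members and lists were chosen with earlier results of these data known. Alternatives were DESeq2 1.42.0, limma 3.58.1 on the deposited FPKM, other size factors and filters, a replicate block and leaving out each library. Promoters came from RefSeq (GRCm38.p6). Gene coordinates are those of the deposited table. Some items are not reported here.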

Additional observations from a re-analysis of the deposited data

Results flagged for a closer look

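The 35 genes are listed because the difference between the PGE2 effects of stimulated and unstimulated cells, on the log2 scale, passed the interaction test. It was above 0 in *Gm26901* (2.58), *Tcam1* (2.36), *Dctd* (1.84), *D030028A08Rik* (1.64), *Car12* (1.57), *Srm* (1.53), *Ifrd2* (1.51), *Polr1b* (1.44), *Pprc1* (1.38), *Gnl3* (1.30), *Akap1* (1.27), *Atad3a* (1.26), *Ifngr1* (1.25), *Slc19a1* (1.22), *Srgap3* (1.21), *Per2* (1.20), *St6galnac4* (1.14), *Cluh* (1.12), *Dkc1* (1.08), *Naa25* (1.03), *Ccdc116* (1.02), *Gpatch4* (1.02) and *Aen* (1.01). It was below 0 in *Ppp2r3a* (−1.05), *Mir22hg* (−1.05), *Lamc1* (−1.06), *Itsn1* (−1.07), *Cnih2* (−1.11), *Tnfsf9* (−1.11), *Tnfaip3* (−1.12), *Ptger2* (−1.23), *Gch1* (−1.29), *Epcam* (−1.40), *Rgs2* (−1.67) and *Pdcd1* (−1.75).

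In 3 of the 112 groups of 4 libraries examined, 1 library stood far from the other 3, and chance marks about 1 in 20 groups. *Dctd* had 3.89 CPM in unstimulated PGE2-treated replicate 4 and 2.01 to 2.11 in the others. *Ifng* had 26.4 CPM in unstimulated untreated replicate 4 and 3.40 to 7.24 in the others, and *Il2rg* had 285 CPM in the same library and 301 to 303 in the others.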

How the results depend on the processing

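The direction of the 64 named genes' interactions was the same with RLE or upper-quartile factors, no filter on low counts, at least 10 counts in every library (61 genes), the replicate block and DESeq2 (63 genes). The number of called genes, 35 by edgeR, was 27 with RLE factors (15 above and 12 below 0), 33 with upper-quartile factors, 43 without the filter, 36 with the stricter filter, 52 with DESeq2 (30 and 22, 33 of them among the 35), 113 without the size threshold and 0 with glmTreat. It was 8, 17 and 6 with limma on log2(FPKM + 1), log2(FPKM + 0.1) and log2(FPKM + 1) without a filter, and 18 to 72 when 1 library was left out. The 28 genes with a PGE2 effect called without beads only became 68 without the size threshold and 13 to 63 when 1 library was left out. The 2 with such an effect with beads only became 6 with DESeq2, 14 without the size threshold and 2 to 4 when 1 library was left out. Causes of these moves were not tested.

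What libraries with the same replicate number share is not given. In 21 of 24 same-numbered pairs deviations from the group means correlated above 0.1, and the lowest r was 0.044. The median r was 0.24 in same-numbered pairs and −0.082 in other pairs between groups. Of 16 libraries, 15 correlated best with their own number. With the replicate block 60 genes were called (37 and 23, 33 of them among the 35), 44 without beads only and 5 with beads only. List members past the test were then 16 for ribosome biogenesis, 11 for stem-like genes, 5 for cAMP targets, 5 for immediate early genes, 4 for costimulatory receptors, 4 for NF-kB regulators, 2 each for cytokines, homing, mTORC1 and cholesterol synthesis, and 1 each for gamma chain and interferon genes. With upper-quartile factors they were 7 for ribosome biogenesis, 4 for stem-like genes, 2 for immediate early genes, 2 for homing, 1 for gamma chain and 1 for PGE2 receptors, and with RLE factors 2 for ribosome biogenesis and 1 for stem-like genes.

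The sign turned in 18 named genes past the adjusted p when changes in mean CPM were subtracted instead of log2 changes, with no test: *D030028A08Rik* (−7.47), *Car12* (−19.5), *Srm* (−49.4), *Ifrd2* (−17.2), *Polr1b* (−22.1), *Pprc1* (−18.7), *Gnl3* (−39.9), *Atad3a* (−17.6), *Ifngr1* (−68.4), *Slc19a1* (−9.96), *Per2* (−6.66), *St6galnac4* (−12.5), *Cluh* (−3.52), *Dkc1* (−25.2), *Ccdc116* (−0.134), *Gpatch4* (−14.8), *Aen* (−7.11) and *Nop58* (−44.3). Among named genes not past it, the sign also turned in *Il2* (−74.0), *Ifng* (−537), *Egr1* (−109) and *Ramp3* (53.2). With limma on log2(FPKM + 1), with or without the filter, it turned in *Il2* (−1.11), *Ifng* (−0.080) and *Egr1* (−0.0017), and without unstimulated untreated replicate 4 in *Ifng* (−0.11, with up to 1.68 without other libraries). The 4 replicates a group limit the precision, and *Gm26901* and *Tcam1* rest on few counts in unstimulated PGE2-treated libraries.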

Other observations

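The following genes were chosen after their values had been seen. *Mycn*, a MYC family member, had PGE2 effects of 0.050 without and −1.25 with beads, and its interaction of −1.30 (95% interval −1.94 to −0.67) just missed the test (edgeR adjusted p = 0.0562). For *Myc* the interaction was 0.73 (95% interval 0.15 to 1.32, edgeR adjusted p = 0.364). The interaction of the fibroblast growth factor receptor gene *Fgfr1* was 1.10 (95% interval 0.51 to 1.69, edgeR adjusted p = 0.0864), with a PGE2 rise of 1.29 without and 2.39 with beads.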
